A study of Mus musculus with 8 samples.

Results

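The acrosome is the secretory vesicle that covers the front of the sperm nucleus, and its contents and membranes are built in the testis by round and elongating spermatids. The genes described here are 10 genes that encode proteins stored in this vesicle or held in its membranes, namely Acr, Acrbp, Acrv1, Spaca1, Spaca3, Spaca7, Zpbp, Zpbp2, Spam1 and Hyal5. They were chosen by name, and all 10 were found among the 17127 genes of the deposited table. Every member passed the minimum level set for testing, which was 2.2 CPM in 2 or more libraries of a group.

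RNA-seq was performed on whole adult testes, with 1 library from each mouse, to compare Iqch-/- mice with wild-type mice. Iqch encodes a protein with an IQ motif, and the mutant mice were made by injecting Cas9 and guide RNA into B6CBAF1 zygotes. The mutants carried short deletions in exon 19 whose lengths were not multiples of the codon length, on both alleles and in every tissue, and 2 edited lines were kept. The mice were 4 months old, and 4 wild-type libraries (replicates 1 to 4) and 3 mutant libraries (replicates 1, 2 and 4) of the 8 samples were used, mutant 3 being not analysed here. The labels do not give the line of each mutant library, although the study's coverage plot of Iqch shows the line it calls mu7, so any difference between the lines was not tested. Since each library was a separate mouse, the errors below include the spread between animals.

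Acrosome formation starts when vesicles from the Golgi apparatus fuse on the nuclear envelope of the round spermatid, and the vesicle then flattens over the nucleus as the spermatid elongates. Its matrix holds proteases, protease-binding proteins and zona-binding proteins, while its membranes and the overlying sperm surface carry hyaluronidases that loosen the cumulus around the egg. Transcripts for these proteins are made mainly in spermatids, with some starting in late spermatocytes.

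The levels are CPM, a gene's share of the reads that its library had on genes, scaled so that a library sums to 1000000. With the smallest step of the values taken as 1 read, the libraries held 32859673 to 37551057 reads in wild type and 32064384 to 34806129 in mutants. The Iqch gene itself read 217, 206, 216 and 193 CPM in wild-type libraries 1 to 4 and 67.7, 64.8 and 69.2 CPM in mutants 1, 2 and 4. All mutant libraries were therefore below all wild-type libraries for the edited gene, and its level fell by 1.63 on the log2 scale (SE 0.05; limma FDR = 1.92e-10). Differences below are log2 fold changes of CPM + 0.1, mutant against wild type, and a gene is said to have fallen or risen when its Benjamini-Hochberg FDR over 17126 tested genes in limma was below 0.01.

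The promoters of 3 members are shown because they share the 8-base motif TGATGTCA, a variant of the cAMP-response element, and because Spam1 and Hyal5 are neighbouring genes whose promoters could be aligned. The motif was chosen after the sequences had been seen. The sequences are from RefSeq on GRCm38.p6 and read 5′ to 3′ on the strand of the gene, from 250 bases before to 50 bases after its start, with the motif in capitals. They lie at chr8:12572786-12573085 on the plus strand for Spaca7, chr6:24790938-24791237 on the plus strand for Spam1 and chr6:24857747-24858046 on the plus strand for Hyal5.
Spaca7: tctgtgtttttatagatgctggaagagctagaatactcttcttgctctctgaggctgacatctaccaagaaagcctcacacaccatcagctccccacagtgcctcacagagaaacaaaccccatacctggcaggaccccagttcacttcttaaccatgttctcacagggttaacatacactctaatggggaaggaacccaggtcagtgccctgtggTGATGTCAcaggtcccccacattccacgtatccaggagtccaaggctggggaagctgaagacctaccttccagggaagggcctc
Spam1: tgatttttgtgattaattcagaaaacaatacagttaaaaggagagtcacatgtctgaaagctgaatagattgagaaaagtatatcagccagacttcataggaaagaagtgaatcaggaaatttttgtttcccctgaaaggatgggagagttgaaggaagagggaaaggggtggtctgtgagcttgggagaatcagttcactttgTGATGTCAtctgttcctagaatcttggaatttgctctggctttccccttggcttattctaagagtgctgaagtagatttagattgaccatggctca
Hyal5: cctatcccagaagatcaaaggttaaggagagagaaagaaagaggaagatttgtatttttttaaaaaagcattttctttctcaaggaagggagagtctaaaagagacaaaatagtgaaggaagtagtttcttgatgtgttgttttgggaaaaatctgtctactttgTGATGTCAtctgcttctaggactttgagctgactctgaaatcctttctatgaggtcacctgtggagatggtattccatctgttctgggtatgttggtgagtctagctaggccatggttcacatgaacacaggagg
The motif began 34 bases before the start in Spaca7, where it stands at position -34, and at positions -46 in Spam1 and -85 in Hyal5. Over the 244 bases that could be aligned, the Spam1 and Hyal5 promoters were 72.1% identical.

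The promoter of Spaca1 is shown as the one with more than 1 copy of TGACG, the first 5 bases of the cAMP-response element TGACGTCA. It lies at chr4:34050016-34050315 on the minus strand in GRCm38.p6, with both copies in capitals, the first at position -69.
Spaca1: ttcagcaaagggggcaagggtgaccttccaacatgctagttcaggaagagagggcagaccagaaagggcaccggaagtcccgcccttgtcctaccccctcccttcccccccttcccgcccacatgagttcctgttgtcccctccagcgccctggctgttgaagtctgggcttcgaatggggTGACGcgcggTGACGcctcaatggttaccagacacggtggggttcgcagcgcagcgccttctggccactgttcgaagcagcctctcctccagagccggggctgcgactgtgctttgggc
Of the 9 members with a RefSeq promoter entry, 4 held TGACG on either strand (Acrbp, Spaca1, Spaca3 and Zpbp2), and 21% of 27025 promoters of the same length did. The motif TGATGTCA was in 3 of the 9 and in 3.76% of all promoters, and the full TGACGTCA, which contains TGACG, was in 0 of the 9 and in 1.88% of all. The shares for TGATGTCA are no test of enrichment. It was chosen after these sequences had been seen, and its matches in the similar promoters of Spam1 and Hyal5 are not independent. None of these motifs was found in the windows of Acrv1 and Zpbp. These matches describe letters in a window and were not tests of binding.

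In wild-type testes the 10 genes were abundant transcripts, with mean levels from 63.1 CPM (Spam1) to 291 CPM (Zpbp2), above those of 78.5% to 96.2% of the genes in the table. On the deposited CPM scale 6 of the 10 fell in the mutants, namely Acr, Acrbp, Acrv1, Spaca7, Zpbp and Zpbp2, and 0 rose. Centred on spermatid markers the members had positive fold changes, in a scaling where 75.3% of all genes were called higher (below). On the CPM scale at an unadjusted p below 0.05 in limma, 9 members were lower and 0 higher, beside 21.4% and 44.7% of all tested genes. At the FDR threshold, 14.2% of all tested genes fell and 36.3% rose. The count of members that fell rested in part on mutant 2, without which it was 3 of 10. Calls were also fewer over all genes, with 1934 of 17097 that fell without mutant 2 against 2428 of 17126 with it. The falls were small, with changes of the mean level of the 10 members from -16.2% for Spaca7 to -5.2% for Spam1. In 8 of the 10 every mutant library was below every wild-type library, a pattern found in 19.5% of all tested genes, and the groups overlapped for Spaca3 and Spam1. The median log2 fold change was -0.19 over the members and 0.12 over all tested genes. Relative to that general shift the members lay between -0.38 and -0.19. In bulk testis, fewer cells of a type and less RNA per cell cannot be told apart.

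**Figure D1:**
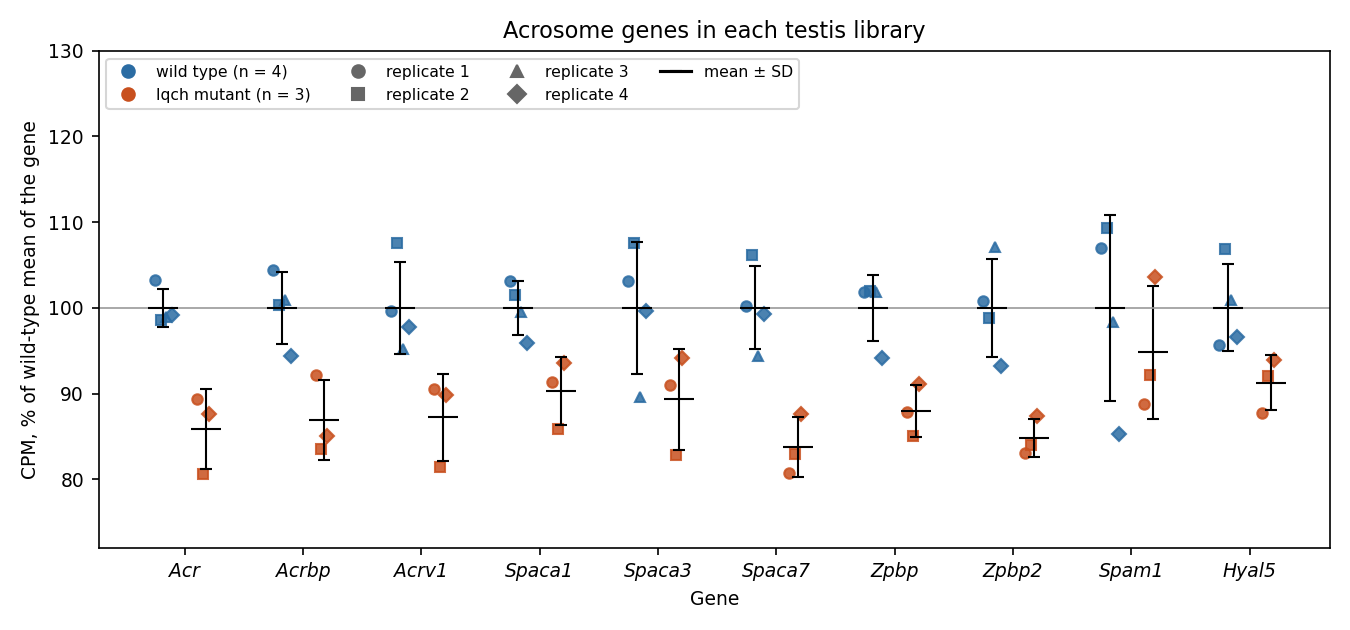
Level of each acrosome gene in every library, as a percentage of the gene's wild-type mean CPM. Blue points are the 4 wild-type and orange points the 3 mutant libraries, with replicate numbers given by marker shape and black bars for mean ± SD. The axis starts above 0. Mutant points lie below all wild-type points of the gene for every member but Spaca3 and Spam1 on this CPM scale. Relative to spermatid markers the members' differences turned positive, in a scaling where 75.3% of all genes were called higher.

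Acr encodes acrosin, the trypsin-like serine protease stored in the acrosome as proacrosin. It lies on chromosome 15 of GRCm39 from 89452527 to 89458792 on the plus strand, with 5 exons in its canonical transcript, and its exons overlap Gm36221, a gene on the other strand that is not in the table. Its level was 181, 173, 174 and 174 CPM in wild-type libraries 1 to 4 and 157, 141 and 154 CPM in mutants 1, 2 and 4. The wild-type libraries were closely grouped, and the highest mutant library stayed below the lowest of them. Wild type had a mean ± SD of 176 ± 3.87 CPM (n = 4) and the mutants of 151 ± 8.20 CPM (n = 3), a log2 fold change of -0.22 (SE 0.045, 95% interval -0.32 to -0.12; limma FDR = 0.000958).

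Acrbp encodes the protein that binds proacrosin and controls its packaging and activation. It has 10 exons on chromosome 6, from 125026652 to 125040230 on the plus strand of GRCm39. Wild-type libraries 1 to 4 read 291, 279, 281 and 263 CPM, and mutants 1, 2 and 4 read 257, 232 and 237 CPM. Wild type 4 and mutant 1 were the closest libraries of the groups, which did not overlap. The mean went from 278 ± 11.6 to 242 ± 12.9 CPM, with a log2 fold change of -0.20 (SE 0.047, 95% interval -0.31 to -0.10; limma FDR = 0.00242). This call was lost without mutant 2, at -0.17 (limma FDR = 0.0149), or without mutant 4, at -0.19 (limma FDR = 0.0141). The value of Acrbp is less certain than that of Acr, since 43.54% of the 50-base stretches of its canonical transcript also occur in 4930557K07Rik on the other strand or Gm44597 on the same strand, and the strand setting of the counting is not given in the sources used here. The level of 4930557K07Rik itself was 2.43 ± 0.404 CPM in wild-type and 3.19 ± 0.314 CPM in Iqch mutant libraries (limma FDR = 0.0558), and Gm44597 is not in the table.

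The proportion of Acr to its binding partner Acrbp was compared within libraries, where the total of a library cancels. The ratio of Acr to Acrbp was 0.624, 0.620, 0.618 and 0.663 in wild-type libraries 1 to 4 and 0.612, 0.609 and 0.650 in mutants 1, 2 and 4. The groups overlapped, and replicate 4 had the highest ratio in each genotype. The difference of the mean log2 ratios was -0.018 (two-sided exact permutation test over 35 assignments, p = 0.571, and 0.571 after Benjamini-Hochberg adjustment over 3 pairs). The smallest p the design allows is 0.0286 before adjustment, for this and the other pairs below. No pair could therefore have passed the 0.01 used for genes. Without wild type 4 the difference of Acr to Acrbp was 0.006.

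Among the other matrix proteins, Acrv1 and Spaca7 fell on the CPM scale and Spaca3 did not pass the test. Acrv1 encodes SP-10, a matrix protein made from the early round spermatid onward, in 4 exons on chromosome 9 from 36604516 to 36610143 on the plus strand. Its level was 220.0, 237, 210.1 and 216 CPM in wild-type libraries 1 to 4 and 199.9, 179.7 and 198 CPM in mutants 1, 2 and 4. All mutant libraries were lower, with wild type 3 nearest to them. From 221 ± 11.8 CPM in wild type to 193 ± 11.2 CPM in mutants, the log2 fold change was -0.20 (SE 0.052, 95% interval -0.31 to -0.08; limma FDR = 0.00545). Acrv1 was the least stable of the 6 calls, which it lost without wild type 1 (limma FDR = 0.0125), wild type 2 (limma FDR = 0.0191) or mutant 2 (limma FDR = 0.0335).

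Spaca7 encodes an acrosomal protein that is released when the vesicle opens, and it lies on chromosome 8 from 12623029 to 12650744 on the plus strand of GRCm39, with 7 exons. It read 82.1, 86.9, 77.3 and 81.3 CPM in wild-type libraries 1 to 4 and 66.1, 67.9 and 71.8 CPM in mutants 1, 2 and 4. The groups were well apart, and Spaca7 had the lowest fold change of the 10. Wild type had a mean of 81.9 ± 3.97 CPM and the mutants of 68.6 ± 2.90 CPM, a log2 fold change of -0.25 (SE 0.052, 95% interval -0.37 to -0.14; limma FDR = 0.000953). D630011A20Rik, on the other strand and not in the table, shares 11.65% of the 50-base stretches of its canonical transcript.

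Spaca3 encodes a lysozyme-like protein of the matrix that lacks the enzyme activity of lysozyme, on chromosome 11 from 80744060 to 80758646 on the plus strand. The wild-type libraries 1 to 4 read 135, 141, 117 and 130.5 CPM, and mutants 1, 2 and 4 read 119, 108 and 123 CPM. Wild type 3 was below mutants 1 and 4, so the groups overlapped. The means were 131 ± 10.04 and 117 ± 7.67 CPM, and the log2 fold change of -0.16 (SE 0.064, 95% interval -0.30 to -0.02) did not pass the threshold (limma FDR = 0.0424). Without wild type 3 it was -0.21 and passed (limma FDR = 0.00564).

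Spaca1 encodes a transmembrane protein of the acrosomal membrane, and its loss in mice is known to give misshapen, round-headed sperm. The gene has 7 exons on chromosome 4, from 34024872 to 34050191 on the minus strand of GRCm39. Its level was 205, 202, 198 and 191 CPM in wild-type libraries 1 to 4 and 182, 171 and 186 CPM in mutants 1, 2 and 4. No mutant library reached the lowest wild-type library. Even so, from 199 ± 6.23 to 179.7 ± 7.89 CPM the log2 fold change was -0.15 (SE 0.044, 95% interval -0.24 to -0.05) and the limma FDR was 0.0107, just above the threshold. Without wild type 4, the lowest of its group, it was -0.17 and passed (limma FDR = 0.00563).

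Zpbp and Zpbp2 are paralogs whose proteins bind the zona pellucida and help to compact the acrosome, and both fell on the CPM scale. Zpbp is the longer gene, on chromosome 11 from 11229625 to 11412469 on the minus strand, and Zpbp2 lies on the same chromosome from 98441923 to 98449491 on the plus strand, each with 8 exons. Their coding sequences were 60.1% identical over 927 aligned bases, and their canonical transcripts share no stretch of 50 bases. Zpbp read 224, 224, 224 and 207 CPM in wild-type libraries 1 to 4 and 193, 187 and 199.95 CPM in mutants 1, 2 and 4. Zpbp2 read 293.5, 288, 312 and 271 CPM in wild-type libraries 1 to 4 and 242, 245 and 254 CPM in mutants 1, 2 and 4. In both genes wild type 4 was the lowest of its group and mutant 4 the highest, with no overlap. The mean of Zpbp was 219.5 ± 8.48 CPM against 193 ± 6.69 CPM in mutants, a log2 fold change of -0.18 (SE 0.044, 95% interval -0.28 to -0.09; limma FDR = 0.00274). The call for Zpbp was lost without wild type 2 (limma FDR = 0.0107) or without mutant 2 (limma FDR = 0.0164). For Zpbp2 the mean was 291 ± 16.7 CPM against 247 ± 6.49 CPM, a log2 fold change of -0.24 (SE 0.048, 95% interval -0.34 to -0.13; limma FDR = 0.000897).

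Reads of Zpbp could include some of Spmip7, a gene on the other strand that shares 4.17% of the 50-base stretches of the Zpbp transcript. The level of Spmip7 was 58.4 ± 3.08 CPM in wild-type and 50.9 ± 3.04 CPM in Iqch mutant libraries (limma FDR = 0.0105). The ratio of Zpbp to Zpbp2 was 0.762, 0.778, 0.717 and 0.762 in wild-type libraries 1 to 4 and 0.797, 0.763 and 0.786 in mutants 1, 2 and 4. Mutants 1 and 4 were above every wild-type library, while mutant 2 lay within their range. The difference of the mean log2 ratios was 0.051 (two-sided exact permutation test, p = 0.143, adjusted p = 0.429 over 3 pairs). It was 0.027 without wild type 3.

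Spam1 and Hyal5 encode hyaluronidases anchored to the sperm membranes, and neither passed the test on the CPM scale. Both belong to a cluster on the plus strand of chromosome 6 in GRCm39, in the order Hyal6 (24733244 to 24745451), Hyal4 (24748328 to 24767661), Spam1 (24791184 to 24801049) and Hyal5 (24857959 to 24891963). Each has 4 exons, and their coding sequences were 69.5% identical over 1532 aligned bases. Their canonical transcripts share no stretch of 50 bases with each other or any other gene.

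Spam1, also called PH-20, read 67.6, 69.0, 62.1 and 53.9 CPM in wild-type libraries 1 to 4 and 56.1, 58.2 and 65.4 CPM in mutants 1, 2 and 4. Wild type 4 was below all mutants, and mutant 4 was above wild type 3, so the groups overlapped broadly. The means were 63.1 ± 6.84 and 59.9 ± 4.90 CPM, and the log2 fold change was -0.07 (SE 0.082, 95% interval -0.25 to 0.11; limma FDR = 0.46). The interval includes both 0 and -0.24, the fold change of Zpbp2. Single libraries moved the value, from -0.03 without wild type 2 or mutant 1 to -0.15 without wild type 4.

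Hyal5 read 98.2, 109.6, 103.5 and 99.1 CPM in wild-type libraries 1 to 4 and 90.0, 94.5 and 96.4 CPM in mutants 1, 2 and 4. All mutants were lower than all wild-type libraries, but by a small margin. The means were 103 ± 5.22 and 93.7 ± 3.28 CPM, with a log2 fold change of -0.13 (SE 0.05, 95% interval -0.24 to -0.02; limma FDR = 0.0367). Within libraries, the ratio of Spam1 to Hyal5 was 0.688, 0.629, 0.600 and 0.544 in wild-type libraries 1 to 4 and 0.623, 0.616 and 0.678 in mutants 1, 2 and 4. The wild-type range enclosed all mutant values, and the difference of the mean log2 ratios was 0.058 (two-sided exact permutation test, p = 0.514, adjusted p = 0.571 over 3 pairs). It was 0.001 without wild type 4 and 0.114 without wild type 1.

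**Figure D2:**
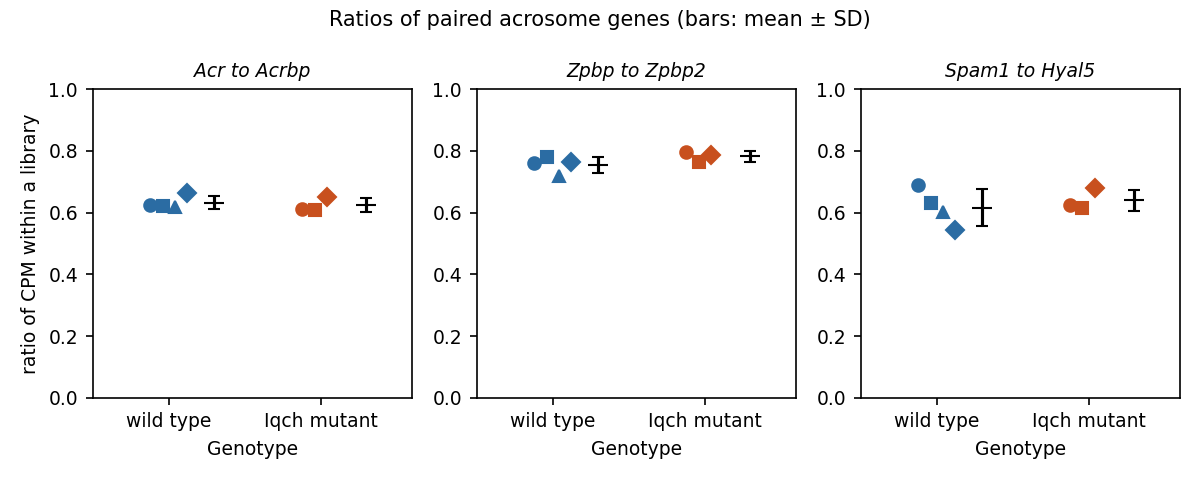
Ratio of CPM within each library for Acr to Acrbp, Zpbp to Zpbp2 and Spam1 to Hyal5, with wild-type libraries in blue, mutants in orange and bars for mean ± SD. The groups overlapped in all 3 pairs, and the widest wild-type spread was that of Spam1 to Hyal5, from 0.544 to 0.688.

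None of the 4 other hyaluronidases in the table passed the test for a lower level. Hyal6, the other testis gene of the cluster, did not pass the test (72.8 ± 7.07 against 68.3 ± 3.38 CPM in mutants, log2 fold change -0.09, limma FDR = 0.297). Hyal2, a hyaluronidase of many tissues, rose (5.75 ± 0.401 against 9.24 ± 0.146 CPM, log2 fold change 0.68, limma FDR = 5.05e-05). Hyal1 and Hyal4 did not pass the test, and Hyal3 is not in the table.

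Compared per length of exon, the wild-type order of levels was Zpbp2 (173 CPM per kb of exon union), Spaca1 (124), Acr (112), Acrbp (84.95), Spaca7 (83.7), Spaca3 (81.4), Acrv1 (59.3), Zpbp (50.3), Hyal5 (46.5) and Spam1 (28.3). The ranges over the wild-type libraries overlapped between the neighbours Acrbp and Spaca7, Spaca7 and Spaca3, and Zpbp and Hyal5, and the other neighbours were apart. The order depended on the length used. By the length of the canonical transcript Acrv1 was first, at 200.2 CPM per kb, and Zpbp2 followed at 192, while Zpbp, Hyal5 and Spam1 were again the lowest at 51.7, 49.4 and 29.9 CPM per kb.

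Several members were high or low in the same library of a genotype. Within the wild-type group, replicate 4 was the lowest library for 5 members and replicate 2 the highest for 6. Within the mutant group, replicate 2 was the lowest for 6 members and replicate 4 the highest for 7. Summed over the 10 genes, the level was 1686 to 1810 CPM in wild-type and 1485 to 1586 CPM in mutant libraries. If the smallest step is 1 read, each member rested on at least 1865 reads in each library, which gives a coefficient of variation of at most 2.32% from counting alone, whereas the coefficient of variation between libraries was 2.2% to 10.8% in wild type and 2.6% to 8.2% in mutants.

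Of a list of 20 other genes of the acrosome, 10 fell and 0 rose on the CPM scale. Relative to spermatid markers their median, like that of the members, was positive, at 0.21, where 75.3% of all genes were called higher. On the CPM scale their median log2 fold change was -0.20, and they ranged from -0.45 to 0.17, with Spaca6 (0.17) and Tex101 (0.09) above 0 and not past the test. The lowest fold changes were those of Pkdrej, a polycystin-like membrane protein of the acrosomal region, which went from 80.1 ± 7.11 to 58.3 ± 0.960 CPM (log2 fold change -0.45, limma FDR = 5.77e-05), and of Crisp2, the most abundant, which went from 1777 ± 72.7 to 1357 ± 15.0 CPM (log2 fold change -0.39, limma FDR = 2.97e-06). Lyzl4, a lysozyme-like protein, and Spink2, a serine protease inhibitor of the acrosome, each had a log2 fold change of -0.27 and fell. Of the 14 genes listed for acrosome formation, 4 fell and 2 rose on the CPM scale, with a median of -0.11, against 10 and 1 with size factors, and 0 and 5 when centred on round spermatid markers. Among all 17126 tested genes, 2428 fell and 6212 rose on the CPM scale, and 4294 and 4627 with size factors. Centred on round spermatid markers, 579 of all tested genes were lower and 10030 higher. Actl7a and Actl9, actin-like proteins of the layer that attaches the acrosome to the nucleus, fell from 378 ± 21.0 to 295 ± 19.6 CPM and from 422 ± 5.097 to 353 ± 14.6 CPM. Dpy19l2, an anchor protein of the inner nuclear membrane, fell from 202 ± 15.3 to 165.5 ± 2.18 CPM. The vesicle traffic genes Vps54 and Smap2 rose, with log2 fold changes of 0.36 and 0.31, and Smap2 did not pass with size factors (limma FDR = 0.0244).

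Markers of testis cells moved in different directions by cell type. Of 10 round spermatid markers 6 fell and 0 rose, with a median log2 fold change of -0.26 and a summed level of 1935 to 2115 CPM in wild-type and 1627 to 1770 CPM in mutant libraries. All 11 elongating spermatid markers fell, with a median of -0.60, and their sum was 25388 to 26925 CPM in wild type and 16481 to 18856 CPM in mutants. The most abundant of them, the protamine gene Prm2, went from 6134 ± 395 to 4041 ± 357 CPM. The acrosome genes thus had a median closer to that of round than of elongating spermatid markers. Of 10 spermatocyte markers 2 fell and 1 rose, with a median of -0.05. Most somatic markers of 3 cell types rose: 9 of 9 Sertoli cell markers tested, 6 of 7 Leydig cell markers and 7 of 7 macrophage markers passed, and their sums were 1426 to 1529 against 2991 to 3165 CPM, 1021 to 1224 against 4296 to 4472 CPM, and 68.3 to 74.2 against 170.5 to 197 CPM. With size factors 7 Sertoli, 6 Leydig and 7 macrophage markers rose. Within the Leydig sum, Insl3 alone went from 438 ± 15.7 CPM in wild type to 2941 ± 37.6 CPM in mutants. Of the 7 spermatogonial markers tested 4 rose, against 1 with size factors. Among all 17126 tested genes 36.3% rose and 14.2% fell on the CPM scale, and 4627 rose with size factors. Of 4 peritubular myoid and 4 endothelial markers, 1 each rose, and Myh11 (-0.16), Cnn1 (-0.19), Vwf (-0.21) and Tek (-0.29) had negative log2 fold changes that did not pass the test, although Vwf was lower in every mutant and passed with size factors (limma FDR = 0.000561). No marker in the table was at 0 in a library. The part of these shifts in the levels of the acrosome genes was not tested.

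**Figure D3:**
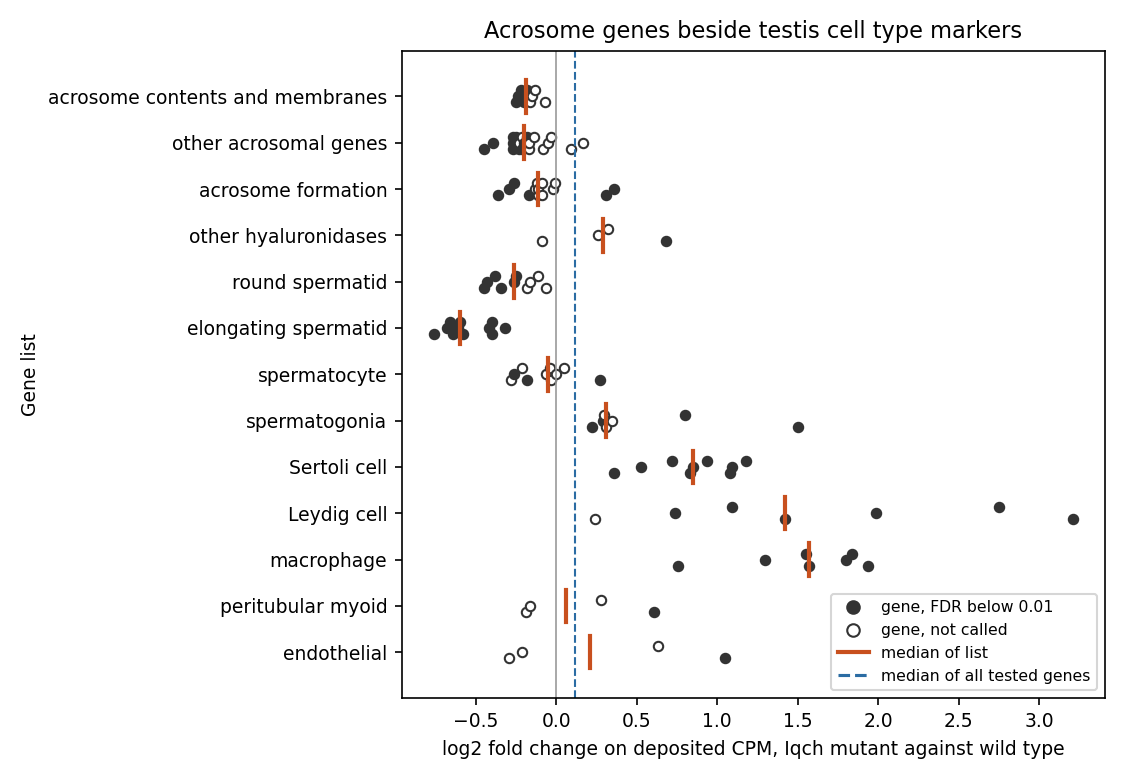
Log2 fold changes on deposited CPM, mutant against wild type, of the 10 acrosome genes (top row) and of the other gene lists, with filled points for genes with a limma FDR below 0.01, an orange bar for each list's median and a dashed line for the median of all tested genes, 0.12. The medians were -0.19 for the acrosome genes, -0.26 for round and -0.60 for elongating spermatid markers, and 0.85 to 1.57 for Sertoli, Leydig and macrophage markers. Relative to spermatid markers the sign of the acrosome genes turned, in a scaling where 75.3% of all genes were called higher.

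The sign of the change depended on what the levels were compared with. Since each scaling shifts all genes almost equally, the members' median stayed below that of all genes. Centred on all spermatid markers, these medians were 0.22 for the members and 0.54 for all genes. With median-of-ratios size factors, which brought the median of all genes to -0.01, 9 of the 10 members fell, against 25.1% of all genes, and Spam1 alone did not pass (log2 fold change -0.21, limma FDR = 0.0384). Centred on the round and elongating spermatid markers together, 8 of the 10 members were higher in mutants, with log2 fold changes of 0.16 to 0.34, but so were 75.3% of all genes. Centred on the elongating markers, all 10 were higher, at 0.30 to 0.48, beside 85.1% of all genes. These shares are near those of all genes and are no result about the acrosome genes. Centred on the round spermatid markers, the members lay between 0.01 and 0.19 and 0 of the 10 passed the test in either direction, while 61.9% of all genes did. At an unadjusted p below 0.05 in limma, 0 of the 10 passed as well, beside 74.2% of all genes, and the lowest adjusted values were those of Spam1 (limma FDR = 0.0731) and Spaca1 (limma FDR = 0.0756). Centred on 10 spermatocyte markers, the members lay between -0.18 and 0.00 and 0 passed the test, beside 7.05% of all genes that were lower, and 2 members were lower at an unadjusted p below 0.05 in limma, beside 13% of all genes. Spam1 had the highest fold change of the 10 on CPM, at -0.07. It stayed the highest under each of these scalings by construction, which is no further result.

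**Figure D4:**
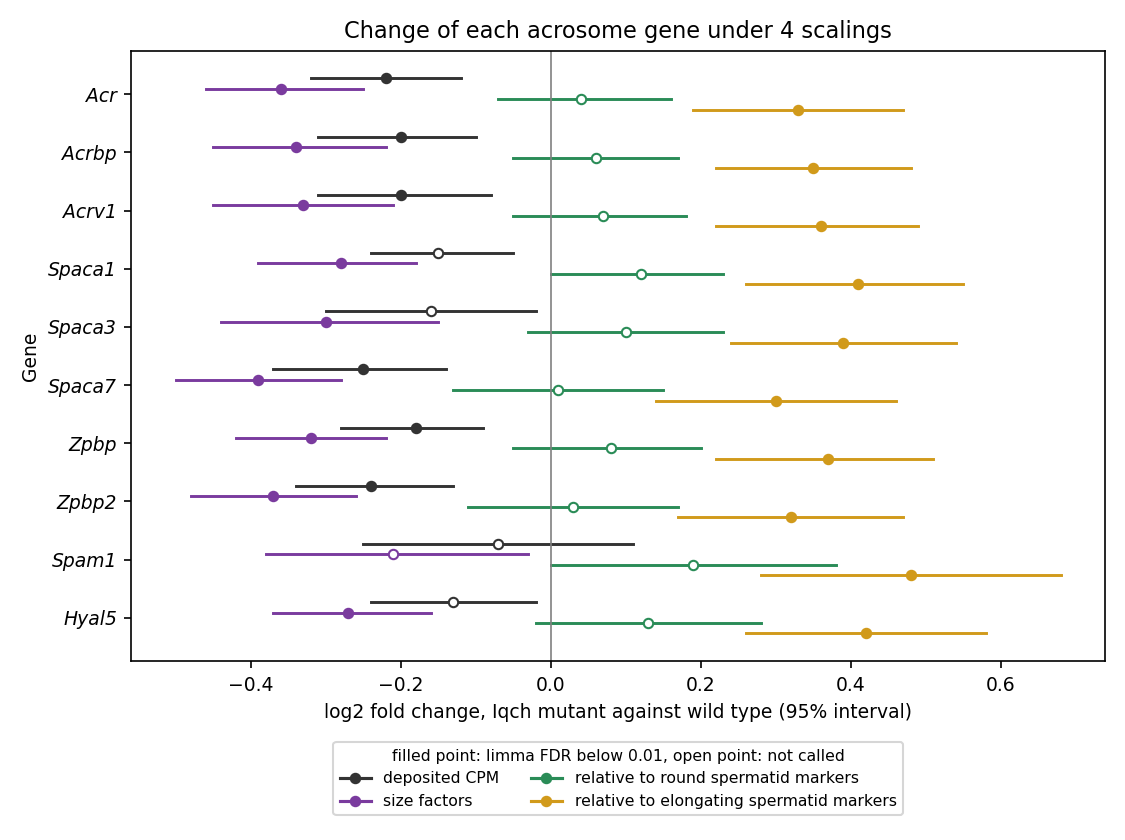
Log2 fold change with its 95% interval for each acrosome gene on deposited CPM (black), after size factors (purple), and relative to round (green) or elongating (yellow) spermatid markers, with filled points for a limma FDR below 0.01. On CPM and size factors every estimate is below 0, and relative to round spermatid markers the estimates are 0.01 to 0.19 with no call. Relative to elongating markers all are above 0, in a scaling where 85.1% of all genes were called higher.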

How the data were processed

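Whole testes of wild-type (n = 4) and Iqch mutant (n = 3) mice were compared. The authors used Trimmomatic to trim the reads, Subread to align them to GRCm39 and featureCounts to assign them to genes, dropped genes that did not reach 75 reads in 2 samples of either group, and deposited the CPM. The strand setting and annotation release are not given in the sources used here. CPM carry no between-sample factor, so a rise of some transcripts lowers the share of all others.

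Tests used limma 3.58.1 in R 4.3.3 (trended eBayes) on log2(CPM + 0.1) of the 17126 genes that reached 2.2 CPM in 2 samples of either group, with Benjamini-Hochberg adjustment. The fit was tested on simulated data in which few or no genes changed, as many up as down. That test did not cover a shift as broad as the one in these data. Alternatives were other pseudocounts and minimums, size factors, spermatid-centred values, a replicate block and leaving out each library. Ratios were tested by exact permutation with SciPy 1.17.1. Gene models were GENCODE M39, in which 17045 of the 17127 identifiers were found, and coding sequences were aligned with Biopython 1.88.

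The members and gene lists were chosen with earlier results of these data known. By rule, the text could name all members, Iqch, and in each other list at most 4 called genes with the largest changes and the most abundant gene. Genes overlapping members and Hyal1, Hyal3, Hyal4, Spaca6, Tex101, Myh11, Cnn1, Pecam1, Vwf and Tek were named outside it, after their values were seen. Promoters of 9 members matched by symbol.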

Additional observations from a re-analysis of the deposited data

Results flagged for a closer look

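In 3 of 13 sets of 4 wild-type values, 1 library stood apart, its gap to the nearest other exceeding Dixon's 95% limit. Chance gives about 1 such set in 20. For Acr, wild type 1 was the highest at 181 CPM, with a gap of 0.875 of the range. For Zpbp, wild type 4 was the lowest at 207 CPM, with a gap of 0.983. The ratio of Acr to Acrbp was highest in wild type 4, at 0.663, with a gap of 0.877. The groups of 3 mutant libraries were not examined in this way.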

How the results depend on the processing

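With a pseudocount of 1 or 0.01, no minimum or a minimum of 5 CPM, all 10 acrosome genes kept their direction and their side of the threshold. Size factors raised the other acrosomal genes that fell from 10 to 17. Over all 17126 tested genes the number that fell went from 2428 to 4294. With a replicate block, 5 members fell in place of 6, since Zpbp (-0.18) reached a limma FDR of 0.0155. Over all tested genes 2139 fell with the block, in place of 2428. Same-numbered libraries did not deviate together (r = 0.026, 0.009 and -0.098), and not every library correlated best with its own number, so the numbers were not taken as pairs.

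Centred on all spermatid markers, 13240 genes were called in place of 8640, members called were 0 lower and 8 higher, and other acrosomal genes 0 lower and 12 higher. The log2 fold changes were then 0.19 for Acr, 0.21 for Acrbp, 0.22 for Acrv1, 0.27 for Spaca1, 0.25 for Spaca3, 0.16 for Spaca7, 0.23 for Zpbp, 0.18 for Zpbp2, 0.34 for Spam1 and 0.28 for Hyal5. The next 3 centrings were added after seeing the data. On round spermatid markers the same genes stood, in that order, at 0.04, 0.06, 0.07, 0.12, 0.10, 0.01, 0.08, 0.03, 0.19 and 0.13, with 0 members and 0 other acrosomal genes lower and 3 of the latter higher. On elongating markers they stood at 0.33, 0.35, 0.36, 0.41, 0.39, 0.30, 0.37, 0.32, 0.48 and 0.42, with 14797 genes called, 0 members lower and 10 higher, and 0 other acrosomal genes lower and 19 higher. On spermatocyte markers 0 members were called, other acrosomal genes were 2 lower and 1 higher, and Spam1 was at 0.00. By construction, each centring subtracts the change of its markers from every gene. Of the 17126 tested genes, 339 were called lower and 12901 higher on all spermatid markers, and 579 and 10030 on round markers. On elongating markers these counts were 226 and 14571, and on spermatocyte markers 1208 and 6856.

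Leaving out 1 library at a time gave 3 to 7 members that fell, 3 without mutant 2. Over all tested genes the number that fell was then 1934 to 2392, with 1934 without mutant 2. Acr, Spaca7 and Zpbp2 fell each time, and Spam1 and Hyal5 passed in no case. Other acrosomal genes that rose numbered 0 to 1, the 1 without mutant 1. The difference of log2 ratios of Acr to Acrbp ran from -0.048 to 0.006 and turned sign without wild type 4. The cause of these changes was not tested. Planned count tests with edgeR and DESeq2 were not run, since only 26 to 41 values per library lay within 20 steps, under the 100 required to accept a step as 1 read, although 100% of the values were whole multiples of it (tolerance 0.02). If it is, counting error was at most 2.32% of a member's level.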
